A study of Mus musculus and Homo sapiens with 24 samples.

Results

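The genes described are *PTPRC*, *HCLS1*, *ARHGAP15*, *DACH1*, *ROBO1*, *SCIN* and *FHAD1*, 7 of the 58721 human genes counted in K-562 cells, chosen by their measured RNA levels, which differ widely between the *TET2* knockout (KO) and wild-type (WT) lines. All 7 were among the 17936 genes with enough counts to be tested. Because the difference between the lines chose them, that difference is given as a description with no test, and tests are given only for other contrasts, for other genes and for other cells. The label of a near on or off state held by a fixed cut for *ROBO1*, *ARHGAP15* and *DACH1*, with *PTPRC* just outside it at a mean of 1.05 CPM (counts scaled to the library total) in KO cells with the control hairpin, whereas *SCIN*, *HCLS1* and *FHAD1* had at least 335 counts in every library.

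K-562 is a human line derived from a chronic myeloid leukaemia. The study asked how loss of TET2, a dioxygenase that oxidises 5-methylcytosine, and knockdown (KD) of *MBD6*, a methyl-binding-domain gene, combine in these cells. Its 12 K-562 libraries, made from polyadenylated RNA per the labels, form 4 groups of 3: WT cells with a control hairpin (WT shControl), WT cells with a hairpin against *MBD6* (WT shMBD6), *TET2* KO cells with the control hairpin (KO shControl) and *TET2* KO cells with the *MBD6* hairpin (KO shMBD6). The remaining 12 of the 24 libraries are total RNA of mouse bone marrow cells that lack lineage markers and carry KIT (LK cells, a fraction with stem and progenitor cells) from mice 6 to 8 weeks old, in 4 groups of 3: *Tet2* WT, *Tet2* KO, control ASO and IAP ASO, the last pair having received by electroporation an antisense oligonucleotide (ASO) that is a control or is directed at the retroviral element IAP. The labels name hairpins and puromycin in the medium of these lines, the study's methods describe lentiviral transduction, and its own sample sheet writes siNC and siMBD6 for these libraries. WT and *TET2* KO lines were received from another laboratory, and how many clones stand behind each is not given in the sources used here, so genotype and clone cannot be told apart. The study calls its genome-wide replicates biological without saying whether they were separate cultures, and p-values measure the spread between these libraries.

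Depth in K-562 was 27625013 to 39877202 gene counts per library. With its hairpin *MBD6* fell in the WT line from 82.4 ± 5.59 (SD, n = 3 here and below) to 37.96 ± 1.09 CPM, and in the KO line the levels were 77.2 ± 4.59 and 43.2 ± 0.799 CPM. *TET2* RNA was at 30.8 ± 2.63 CPM in WT shControl and 33.3 ± 0.688 CPM in KO shControl, so its count does not check the genotype, and "KO" refers to the libraries labelled so. Both lines were at 0 counts for *CDKN2A* and *CDKN2B* and at 0 or a lone read for *MTAP*, genes of a 9p21 segment that K-562 is known to lack. The summed level of 16 erythroid markers was 2946 to 3044 CPM in WT shControl and 1714 to 1764 CPM in KO shControl. That of 6 mast cell and basophil markers was 0.591 to 1.03 CPM and 17.96 to 19.3 CPM, nearly all of it *MS4A2* (12.6 CPM in KO shControl) and *HDC* (5.88 CPM), with *CPA3* at 0 counts in both groups and *TPSAB1* at 0 or a lone count per library. Megakaryocyte markers summed to 140 to 148 CPM and 60.9 to 68.0 CPM. These marker levels moved with the line in parallel with the genes below, and their part in the results was not tested.

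*PTPRC* encodes CD45, the transmembrane tyrosine phosphatase carried by nucleated haematopoietic cells, which removes the inhibitory phosphate of SRC-family kinases and restrains JAK kinases. The other genes reach the same cells from different sides: *ROBO1* is the receptor of the SLIT guidance ligands, *SCIN* (scinderin) severs and caps actin filaments when calcium rises, *HCLS1* is the haematopoietic relative of cortactin that holds branched actin together, and *ARHGAP15* switches off the small GTPase RAC. *DACH1* is a nuclear cofactor of the sine oculis homologues and the eyes absent proteins, and *FHAD1* is a little-studied protein with a phosphothreonine-binding forkhead-associated domain. In blood cells, actin regulators and CD45 act on adhesion, migration and antigen-receptor signals, and DNA methylation at CG dinucleotides is one of the layers that keep lineage genes silent.

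TET enzymes act on 5-methylcytosine, which in DNA lies mostly at CG dinucleotides. The study concludes that TET2 most likely regulates chromatin and transcription through 5-methylcytosine in RNA, while it can also act on DNA. As a description only, the sequence just before the annotated start of the 4 near on or off genes is shown. Of the graded genes, that of *SCIN* (18 CG) stands beside them, whereas those of *HCLS1* (2 CG) and *FHAD1* (14 CG) are not shown. Each is the 250 bases before the start of the gene's canonical transcript, 5′ to 3′ on the gene's strand, with every CG in capitals (hg38; *PTPRC* chr1:198638790-198639039, plus strand; *ROBO1* chr3:79767999-79768248, minus strand; *ARHGAP15* chr2:143129169-143129418, plus strand; *DACH1* chr13:71867205-71867454, minus strand; *SCIN* chr7:12570470-12570719, plus strand).
PTPRC: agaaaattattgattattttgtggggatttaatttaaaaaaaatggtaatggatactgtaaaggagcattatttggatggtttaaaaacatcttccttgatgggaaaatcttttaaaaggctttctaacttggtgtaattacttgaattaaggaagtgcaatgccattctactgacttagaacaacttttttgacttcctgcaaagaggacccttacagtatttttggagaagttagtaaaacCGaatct
ROBO1: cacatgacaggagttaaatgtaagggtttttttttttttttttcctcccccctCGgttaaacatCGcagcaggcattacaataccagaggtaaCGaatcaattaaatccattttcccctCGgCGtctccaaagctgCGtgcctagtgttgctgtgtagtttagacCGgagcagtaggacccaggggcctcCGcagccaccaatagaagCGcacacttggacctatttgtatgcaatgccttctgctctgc
ARHGAP15: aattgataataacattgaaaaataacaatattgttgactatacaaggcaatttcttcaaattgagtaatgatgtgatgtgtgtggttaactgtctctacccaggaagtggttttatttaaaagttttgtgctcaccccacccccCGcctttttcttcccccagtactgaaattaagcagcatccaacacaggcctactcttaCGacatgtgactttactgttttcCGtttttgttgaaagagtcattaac
DACH1: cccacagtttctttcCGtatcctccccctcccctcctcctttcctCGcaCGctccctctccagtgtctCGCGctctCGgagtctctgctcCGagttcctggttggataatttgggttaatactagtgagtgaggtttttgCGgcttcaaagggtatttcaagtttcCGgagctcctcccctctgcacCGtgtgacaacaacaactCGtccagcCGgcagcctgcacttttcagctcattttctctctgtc
SCIN: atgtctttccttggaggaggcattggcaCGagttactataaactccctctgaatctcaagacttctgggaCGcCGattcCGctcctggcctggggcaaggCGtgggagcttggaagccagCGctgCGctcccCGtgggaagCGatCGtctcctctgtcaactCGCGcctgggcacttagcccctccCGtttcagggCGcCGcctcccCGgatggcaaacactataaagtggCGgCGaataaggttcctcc

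The 4 near on or off genes and the graded gene *HCLS1* held fewer CG at their starts than the median window. In the 300-base window that runs from 250 bases before the start to 50 after it, *PTPRC* held 1 CG, and 1.77% of 19969 protein-coding windows held fewer. *ARHGAP15* held 4 (12.5% of windows held fewer), *HCLS1* 6 (18.2%), *ROBO1* 11 (27.0%) and *DACH1* 12 (28.4%), all below the median window with its 23. *SCIN* and *FHAD1* held 23 each (48.7%). CG was also set against the number expected from the C and G counts of the window. That ratio was 0.122 in *PTPRC*, 0.369 in *ARHGAP15*, 0.393 in *HCLS1* and 0.615 in *DACH1*. In *ROBO1* it was 0.716, in *FHAD1* 0.749 and in *SCIN* 0.865, against a median of 0.776. GC content ran from 33.7% in *PTPRC* to 64% in *FHAD1*, against a median of 63.7%. Of the motifs searched on both strands, AGATAA was found in the window of *ROBO1* (in 7.15% of all windows), TGTGGT in that of *ARHGAP15* (10.7%), CCGGAA in that of *DACH1* (22.8%), TATAAA in that of *SCIN* (9.73%) and GAGGAA in those of *DACH1*, *ROBO1*, *SCIN* and *FHAD1* (27.3%). GAGGAA and CCGGAA share their last 4 letters. These are letters of the reference genome, the start that K-562 uses was not measured, and methylation was not measured in these libraries.

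The lines differed in opposite directions: *PTPRC*, *ROBO1* and *SCIN* were lower in the KO libraries and *ARHGAP15*, *DACH1*, *HCLS1* and *FHAD1* higher. In every one of the 7 the 6 WT libraries and the 6 KO libraries did not overlap, which is what they were chosen for (19.6% of all 17936 genes had no such overlap), and 42.8% of all genes passed the edgeR test between KO and WT with shControl at an adjusted p under 0.05. Levels below are CPM, scaled by the trimmed mean of M values (TMM), so each is a level relative to the rest of its library. Where hairpin groups of a line are said below not to overlap, this alone is common. In WT it held for 49.6% of all tested genes, and in KO the share was not counted.

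*PTPRC* (ENSG00000081237.19, hg38 chromosome 1, 198638457 to 198757476, plus strand, protein-coding) was at 222, 209 and 215 CPM in WT shControl and at 262, 272 and 266 CPM in WT shMBD6. In KO shControl it was at 1.56, 0.868 and 0.732 CPM (53, 31 and 23 counts), and in KO shMBD6 at 0.646, 0.461 and 0.279 CPM (24, 15 and 10 counts). All 12 libraries therefore held CD45 reads, yet no KO library reached 1% of any WT library. On pooled counts KO shControl held 0.493% of the WT shControl level (95% exact conditional interval 0.404 to 0.596, counting error only), a 203-fold difference, and KO shMBD6 held 0.174% of the WT shMBD6 level (0.129 to 0.230), a 575-fold difference. The fitted log2 differences were -7.67 (SE 0.102) and -9.15 (SE 0.113), rank 6 and rank 1 from the bottom of the 17936 genes. In WT shControl the mean of *PTPRC* was above that of 95.2% of tested genes, and in KO shControl above 25.4%. The order of the 4 groups was WT shMBD6, WT shControl, KO shControl, KO shMBD6, with no overlap between neighbours.

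*ROBO1* (ENSG00000169855.19, chromosome 3, 78597239 to 79767998, minus strand, protein-coding, a gene body of 1171 kb) was at 24.004, 24.4 and 24.5 CPM in WT shControl and at 26.9, 23.9 and 23.4 CPM in WT shMBD6. KO shControl libraries held 6, 4 and 1 counts of it (0.177, 0.112 and 0.0318 CPM) and KO shMBD6 libraries 12, 7 and 5 counts (0.323, 0.215 and 0.139 CPM). Its KO level was 0.447% of WT with shControl (0.223 to 0.802) and 0.920% with shMBD6 (0.588 to 1.37), folds of 224 and 109. The WT groups overlapped each other and so did the KO groups, so the order of the hairpins within a line is not resolved. With shControl the interval of the remaining share included that of *PTPRC*, and with shMBD6 the intervals of *ROBO1* and *PTPRC* lay apart.

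*SCIN* (ENSG00000006747.14, chromosome 7, 12570577 to 12660182, plus strand, protein-coding) was at 654, 641 and 636 CPM in WT shControl, 429, 435 and 431 CPM in WT shMBD6, 209, 218 and 207 CPM in KO shControl, and 124, 132 and 126 CPM in KO shMBD6. It was the most abundant of the 7 in the WT line per length of exon, at 55.3 CPM per kb in WT shControl against 13.97 for *PTPRC* and 2.1995 for *ROBO1*. It was graded rather than off: with 6500 to 7791 counts per library, KO shControl kept 32.9% of the WT shControl level (32.4 to 33.4), a log2 difference of -1.61 (SE 0.0311). With shMBD6 the KO line kept 29.4% (28.8 to 29.98), a log2 difference of -1.76 (SE 0.0317). The 4 groups fell in the order WT shControl, WT shMBD6, KO shControl, KO shMBD6, with no overlap.

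*HCLS1* (ENSG00000180353.10, chromosome 3, 121631399 to 121660927, minus strand, protein-coding) went the other way. It was at 12.1, 10.8 and 14.5 CPM in WT shControl, 20.01, 17.4 and 16.5 CPM in WT shMBD6, 133, 139.6 and 135 CPM in KO shControl, and 147, 136 and 150.4 CPM in KO shMBD6. The WT line held 9.04% of the KO level with shControl (8.51 to 9.59) and 12.4% with shMBD6 (11.8 to 13.01), folds of 11.1 and 8.06. WT libraries held 335 to 673 counts each, so *HCLS1* was on in both lines. Its 2 KO groups overlapped and its 2 WT groups did not. Per length of exon it was the highest of the 7 in KO shControl, at 26.7 CPM per kb against 18.2 for *SCIN*, 9.9997 for *ARHGAP15* and 5.53 for *FHAD1*.

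*ARHGAP15* (ENSG00000075884.13, chromosome 2, 143091362 to 143768352, plus strand, protein-coding, 677 kb) was at 0.326, 0.301 and 0.417 CPM in WT shControl (9, 12 and 12 counts) and at 0.268, 0.976 and 0.666 CPM in WT shMBD6 (9, 36 and 23 counts). It was at 64.7, 61.7 and 57.4 CPM in KO shControl and at 40.1, 40.98 and 49.9 CPM in KO shMBD6. The WT line held 0.558% of the KO level with shControl (0.384 to 0.785) and 1.48% with shMBD6 (1.15 to 1.88). That is a 179-fold and a 67.5-fold difference, the latter resting on WT libraries that spread over 9 to 36 counts. The KO groups did not overlap and the WT groups did.

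*DACH1* (ENSG00000276644.4, chromosome 13, 71437966 to 71867204, minus strand, protein-coding, 429 kb) had 1, 2 and 0 counts in the WT shControl libraries and 5, 5 and 2 in the WT shMBD6 libraries. In KO shControl it was at 13.7, 14.1 and 13.0 CPM (466, 505 and 410 counts), and in KO shMBD6 at 13.6, 11.9 and 11.5 CPM. With 3 counts in all in WT shControl, the ratio of KO to WT was 438 with a 95% counting interval of 150 to 2128, and with shMBD6 it was 109 (61.9 to 211). The off state is thus bounded, not measured: the depth allows a WT level of 0.0470% to 0.668% of KO with shControl. The WT groups did not overlap at these few counts, and the KO groups did. At 13.6 ± 0.555 CPM in KO shControl, *DACH1* stood above 52.1% of tested genes.

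*FHAD1* (ENSG00000142621.19, chromosome 1, 15236521 to 15400283, plus strand, protein-coding) was at 12.3, 12.2 and 12.1 CPM in WT shControl, 18.8, 20.3 and 18.5 CPM in WT shMBD6, 74.96, 72.9 and 72.9 CPM in KO shControl, and 87.7, 88.9 and 85.3 CPM in KO shMBD6. The WT line held 16.6% of the KO level with shControl (15.6 to 17.6) and 22.0% with shMBD6 (20.98 to 23.1). Like *HCLS1* it was measurable everywhere, with at least 339 counts in a library. Its 4 groups rose in the order WT shControl, WT shMBD6, KO shControl, KO shMBD6 without overlap.

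**Figure D1:**
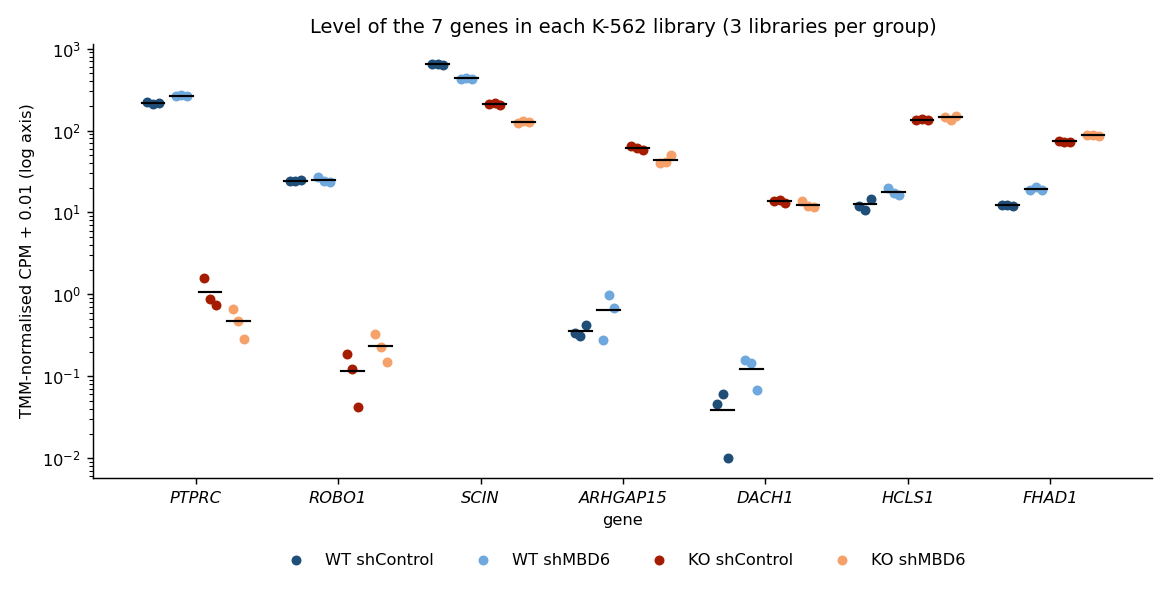
TMM-normalised CPM plus 0.01 on a log axis for the 7 genes (x axis), 1 point per library and 3 per group, with a black bar at the group mean. *PTPRC*, *ROBO1*, *ARHGAP15* and *DACH1* drop to or below about 1 CPM in one of the lines, whereas *SCIN*, *HCLS1* and *FHAD1* stay above 10 CPM in all 12 libraries.

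With a mean under 1 CPM in both groups of one line and over 10 CPM in both groups of the other, 11 of the 17936 genes qualified: 7 were on in the KO line (*ARHGAP15*, *DACH1*, *ACP3*, *SLC18A2*, *TGFBR2*, the pseudogene *POTEKP* and the non-coding RNA *PPP1R3B-DT*) and 4 in the WT line (*ROBO1*, *CTAG2*, *GSDME* and *B3GALNT1*). *PTPRC* fell just outside, since its KO shControl mean was 1.05 ± 0.444 CPM, with replicate 1 above the limit and replicates 2 and 3 below it. *TGFBR2*, the type II receptor of TGF-β, was at 0.244 CPM in WT shControl and 14.7 CPM in KO shControl. *SLC18A2*, a vesicular monoamine transporter, was at 0.899 and 22.2 CPM. With limits of 0.5 and 5 CPM, 22 genes qualified, of which *ROBO1* and *DACH1* were from the 7, and only 5 genes met both cuts.

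Likeness over the 12 K-562 libraries was measured as the Euclidean distance of log2 CPM (prior count 2) centred on each gene's mean. For *PTPRC* the nearest of all tested genes were *ROBO1* (distance 3.52), *CTAG2* (3.55), a cancer-testis gene of the X chromosome, and the pseudogene *CHMP1B2P* (3.95). *ARHGAP15* was nearest to *DACH1* (1.96) and to the non-coding RNAs *LINC00508* (2.11) and *LINC02241* (2.199), and *DACH1* to *LINC00508* (1.60), *LINC02241* (1.65) and *ARHGAP15* (1.96). *ROBO1* was nearest to *CTAG2* (2.44), *CHMP1B2P* (3.13) and *RBMS1* (3.48). The graded genes had much closer companions: *AHNAK* (0.342), *SETD7* (0.577) and *SSX1* (0.715) for *FHAD1*, *SLC37A1* (0.511), *LINC00942* (0.566) and *OR2AT4* (0.578) for *SCIN*, and *GPATCH2* (0.838), *MALT1* (0.867) and *RTKN2* (0.923) for *HCLS1*. *HCLS1* and *FHAD1* lay 1.54 apart. Since the lines form separate clusters, such distances mostly carry the difference between the lines and are given as a description.

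The effect of the *MBD6* hairpin within each line was not used to choose the genes. It was tested for members that passed the count filter within that line's own libraries, which leaves out *DACH1* in WT and *ROBO1* in KO. In the WT line 4 of the 6 passed the edgeR test (background 39.6% of 17936 genes, 20.4% higher and 19.2% lower). *PTPRC* rose by 0.31 on the log2 scale (SE 0.0561, edgeR adjusted p 0.000173), *HCLS1* by 0.54 (SE 0.0866, edgeR adjusted p 4.57e-05) and *FHAD1* by 0.66 (SE 0.0568, edgeR adjusted p 1.39e-08), whereas *SCIN* fell by 0.58 (SE 0.0302, edgeR adjusted p 8.90e-12). All 3 shMBD6 libraries lay beyond all 3 shControl libraries for each of these 4, as for 49.6% of all tested genes. *ROBO1* differed by 0.03 (95% interval -0.17 to 0.23, edgeR adjusted p 0.857). The summed erythroid markers rose alongside, from 2946 to 3044 CPM to 3854 to 4168 CPM, and the megakaryocyte markers went from 140 to 148 CPM to 92.9 to 93.5 CPM; their part was not tested.

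*ARHGAP15* differed by 0.91 with shMBD6 (SE 0.379, edgeR adjusted p 0.0634), and without WT shMBD6 replicate 1, its lowest library, by 1.26 (edgeR adjusted p 0.00425). It also passed with DESeq2 (adjusted p 0.0365) and with no filter on low counts (edgeR adjusted p 0.0128). Without WT shMBD6 replicate 2, the highest, *ARHGAP15* differed by 0.45 (edgeR adjusted p 0.429). It did not pass in a fit of the WT libraries alone. *DACH1* had 3 counts over the WT shControl group and 12 over WT shMBD6, too few to test. Both genes are read here from residual RNA at under 1 CPM.

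In the KO line 4 of the 6 passed as well (background 34.8%, 18.5% higher and 16.3% lower). *SCIN* fell by 0.73 (SE 0.0315, edgeR adjusted p 4.31e-13) and *ARHGAP15* by 0.49 (SE 0.101, edgeR adjusted p 0.000684), while *FHAD1* rose by 0.25 (SE 0.0455, edgeR adjusted p 0.000231). The residual *PTPRC* RNA fell by 1.182 (SE 0.275, edgeR adjusted p 0.00204), which is a fall from 107 to 49 counts over 3 libraries each. *HCLS1* differed by 0.09 (95% interval -0.05 to 0.22, edgeR adjusted p 0.322) and *DACH1* by -0.14 (-0.37 to 0.09, edgeR adjusted p 0.366). *ROBO1*, at 11 counts over KO shControl and 24 over KO shMBD6, was not tested. The mast cell and basophil markers went from 17.96 to 19.3 CPM with shControl to 50.1 to 55.7 CPM with shMBD6, through *MS4A2* (12.6 and 46.3 CPM), while the erythroid markers were at 1714 to 1764 and 1696 to 1703 CPM; their part was not tested.

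**Figure D2:**
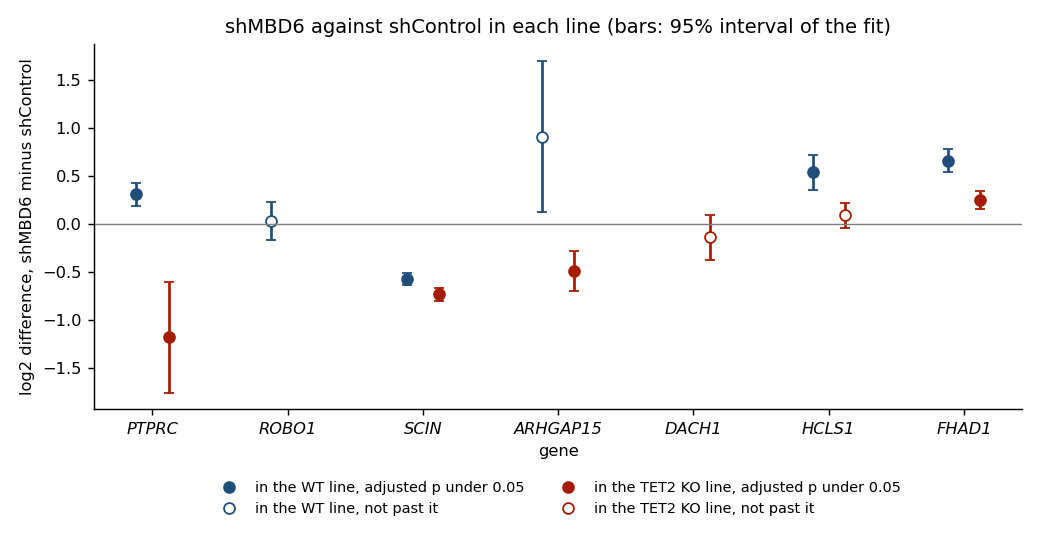
Fitted log2 difference of shMBD6 against shControl (y axis) by gene (x axis) in the WT line (blue) and the *TET2* KO line (red), with 95% intervals; *DACH1* in WT and *ROBO1* in KO are left out for too few counts, and filled points passed an edgeR adjusted p under 0.05. *SCIN* fell and *FHAD1* rose in both lines, and *PTPRC* rose by 0.31 in the WT line and fell by 1.182 in the KO line.

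The interaction term asks whether the hairpin effect differed between the lines. It equals the KO against WT difference with shMBD6 minus that with shControl. It therefore shares values with the differences that chose the genes, and its calls are a description rather than separate support. It was given for the 5 genes that passed the count filter within each line, which leaves out *DACH1* and *ROBO1*, and all 5 passed (background 21.3%, 10.3% higher and 11% lower). The effect in KO minus that in WT was -1.49 for *PTPRC* (SE 0.280, edgeR adjusted p 0.000583), -1.40 for *ARHGAP15* (SE 0.3901, edgeR adjusted p 0.0132), -0.45 for *HCLS1* (SE 0.107, edgeR adjusted p 0.00451), -0.41 for *FHAD1* (SE 0.0728, edgeR adjusted p 0.000350) and -0.16 for *SCIN* (SE 0.0435, edgeR adjusted p 0.0122). For *PTPRC* the signs of the effect were opposite in the lines. *ARHGAP15* lost its call without WT shControl replicate 2 (-1.28, edgeR adjusted p 0.0595) and without WT shMBD6 replicate 2 (-0.95, edgeR adjusted p 0.129). The terms of *PTPRC* and *ARHGAP15* rest in one of the lines on under 1.6 CPM. *MBD6* RNA itself fell with its hairpin by 1.12 in WT and by 0.84 in KO (interaction 0.28, SE 0.0763, edgeR adjusted p 0.0104). The part of this unequal knockdown was not tested.

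ERCC spike-in RNA made up 0.872% to 0.881% of gene counts in WT shControl and 0.320% to 0.397% in the other groups, so the values above, which set the median gene near 0, depend on that choice. With ERCC scaling the median gene stood at 1.26 (log2) for KO against WT with shControl, 1.13 for shMBD6 in WT, 0.18 for shMBD6 in KO and -0.95 for the interaction. The share of calls that were higher went from 51.7% to 98.6%, from 51.5% to 99.8%, from 53.3% to 86.7% and from 48.2% to 0.42% in these 4 contrasts. On that scale *SCIN* with shMBD6 in WT was 0.56 higher in place of lower, still below the median gene, *SCIN* differed by -0.35 between KO and WT shControl, *PTPRC* by -6.41 and *ROBO1* by -6.51, and all 6 genes tested were called higher with shMBD6 in WT.

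Genes beside the 7 loci were tested between KO and WT with shControl. Within 500 kb of the gene bodies 31 other genes were tested and 14 passed the edgeR test (45.2%, against 42.8% of all genes), 9 higher and 5 lower. Of these, 2 overlap *ARHGAP15* or *SCIN* and may hold reads of those genes, and without them 12 of 29 passed (41.4%). A change of at least 2-fold was called for 5 of the 29, against 10.4% of all genes. Of these 5, *CD86* and *RPL12P14* had calls that rest on single libraries.

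Few genes could be tested around *PTPRC*, *ROBO1* and *DACH1*. The only tested neighbour of *PTPRC* was *NEK7*, a mitotic kinase gene 316 kb upstream, at 69.8 ± 5.02 CPM in WT shControl and 49.1 ± 2.65 CPM in KO shControl (log2 difference -0.51, SE 0.0563, edgeR adjusted p 2.33e-07). The median log2 difference of the 53 tested genes within 5 Mb of *PTPRC* was -0.28, against -0.00 for chromosome 1. No gene within 500 kb of *ROBO1* or *DACH1* had enough counts to be tested, and the medians within 5 Mb were -0.11 and 0.08, each over 12 genes. Beside *SCIN*, the pseudogene *SSBL5P* upstream differed by 0.40 (edgeR adjusted p 0.637), and the median within 5 Mb was 0.02 over 25 genes, against 0.21 for chromosome 7.

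*ARHGAP15* had 3 tested neighbours. *KYNU*, which encodes the kynureninase of tryptophan breakdown and lies 35.5 kb upstream, rose with it, from 3.93 ± 0.953 to 26.8 ± 0.9998 CPM (log2 difference 2.79, SE 0.124, edgeR adjusted p 1.26e-13). *GTDC1*, 170 kb downstream, differed by -0.25 (SE 0.127, edgeR adjusted p 0.118). A long non-coding RNA inside the gene body, ENSG00000283994, had 0 counts in WT shControl and 35 in KO shControl, at least 11.1-fold higher against a floor of 3 counts over the group (edgeR adjusted p 0.000393). Its reads cannot be told apart from those of *ARHGAP15*, as the strand setting of the counting is not stated. *SCIN* likewise overlaps a non-coding RNA, ENSG00000225606, which was at 1.11 ± 0.214 and 0.358 ± 0.183 CPM (log2 difference -1.64, edgeR adjusted p 0.00615) and holds the same uncertainty. Between the lines with shMBD6 neither ENSG00000283994 (edgeR adjusted p 0.0611) nor ENSG00000225606 (-0.69, edgeR adjusted p 0.243) passed. *KYNU* stayed higher there by 1.78 (edgeR adjusted p 7.45e-11), and *GTDC1* was lower by 0.34 (edgeR adjusted p 0.0356).

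Beside *HCLS1*, the flanking *GOLGB1*, a Golgi protein gene 2.27 kb upstream, was level at 157 ± 4.31 and 156 ± 1.47 CPM (log2 difference -0.00, 95% interval -0.08 to 0.08, edgeR adjusted p 0.964), and *POLQ*, a DNA polymerase gene 85.4 kb downstream, was higher by 0.31 (SE 0.0592, edgeR adjusted p 0.000230). *CD86*, a T cell costimulator 394 kb upstream, passed at a log2 difference of 2.41 from 0.0719 to 0.356 CPM (edgeR adjusted p 0.0270). It did not pass when KO shControl replicate 1 (1.91, edgeR adjusted p 0.144) or WT shControl replicates 2 (1.70, edgeR adjusted p 0.134) or 3 (2.13, edgeR adjusted p 0.0987) was left out, and stood at 4.29 without WT shControl replicate 1. Of 15 neighbours of *FHAD1*, 7 passed. *TMEM51* 16.0 kb upstream rose from 1.48 ± 0.343 to 4.21 ± 0.522 CPM (log2 difference 1.496, edgeR adjusted p 7.12e-07) and its antisense RNA *TMEM51-AS1* by 3.71 from 0.0251 to 0.446 CPM (edgeR adjusted p 0.000590; 6.91 without WT shControl replicate 2). *EFHD2*, 9.61 kb downstream, differed by -0.06 (SE 0.0433, edgeR adjusted p 0.255). The pseudogene *RPL12P14* passed at 1.68 (edgeR adjusted p 0.0348). It missed the threshold without KO shControl replicate 2 (1.76, edgeR adjusted p 0.0565) or 3 (1.43, edgeR adjusted p 0.125). The same held without WT shControl replicate 2 (1.55, edgeR adjusted p 0.109) or 3 (1.14, edgeR adjusted p 0.119), and it stood at 2.69 without WT shControl replicate 1. With shMBD6 *RPL12P14* was lower in KO by 1.86 (edgeR adjusted p 0.0110). *POLQ* then differed by -0.14 (edgeR adjusted p 0.0683) and *CD86* by 1.26 (edgeR adjusted p 0.209). *TMEM51* stayed higher by 1.35 (edgeR adjusted p 3.93e-07) and *TMEM51-AS1* by 2.85 (edgeR adjusted p 0.000172).

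**Figure D3:**
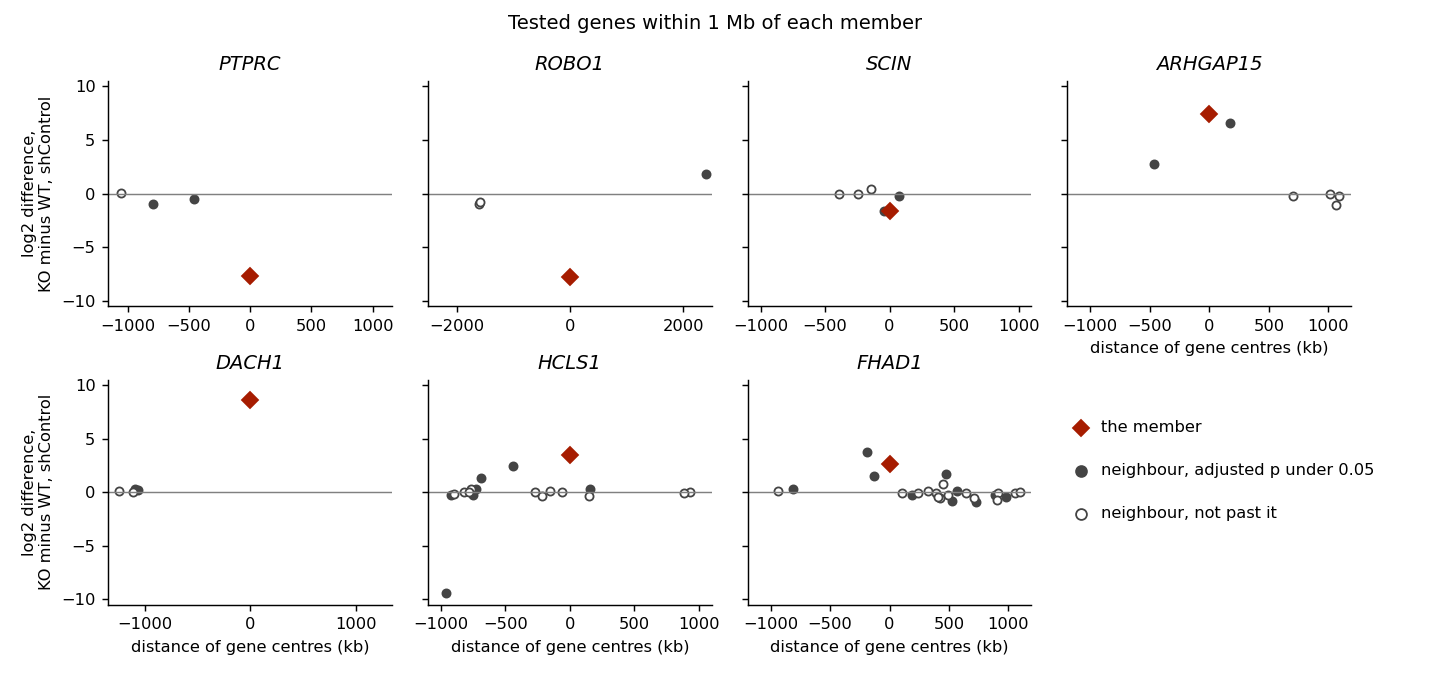
Fitted log2 difference of KO against WT with shControl (y axis) for each of the 7 genes (red diamond) and the tested genes within 1 Mb of its body (circles, filled where the edgeR adjusted p is under 0.05), placed by the distance between gene centres in kb, upstream to the left. *KYNU* (2.79) lies beside *ARHGAP15*, whereas *GOLGB1* beside *HCLS1* lies at 0 and no tested gene lies within 500 kb of the bodies of *ROBO1* and *DACH1*.

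The medians of the pathway lists around the 7 genes lay between -0.01 and 0.45 on the log2 scale for KO against WT with shControl. Each count below stands against 42.8% of all genes called in that contrast (22.2% higher, 20.7% lower), and counts for KO against WT with shMBD6 against 44.5% (22.9% higher, 21.6% lower; median gene 0.01). Of 15 tested genes of CD45 signalling (the SRC-family kinases, their regulators and the JAK kinases), 5 were higher and 6 lower in KO shControl, with a median of 0.06 on the log2 scale against 0.00 for all genes. With shMBD6, 4 were higher and 5 lower (median 0.08). The named ones were *ZAP70*, a T cell receptor kinase, at 2.97 ± 0.534 and 0.871 ± 0.476 CPM (log2 difference -1.76, edgeR adjusted p 0.000355), the phosphatase *PTPN22* (0.91, edgeR adjusted p 1.33e-06) and *PAG1*, the adaptor that holds the kinase CSK (0.85, edgeR adjusted p 0.0160). *PAG1* did not pass once KO shControl replicate 2 (0.53, edgeR adjusted p 0.161) or WT shControl replicate 2 (0.79, edgeR adjusted p 0.0590) was left out. Between the lines with shMBD6 *ZAP70* differed by 0.41 (edgeR adjusted p 0.440). *PTPN22* (1.52, edgeR adjusted p 2.60e-09) and *PAG1* (1.19, edgeR adjusted p 0.000997) stayed higher there. Under ERCC scaling *ZAP70* differed by -0.50 with shControl (edgeR adjusted p 0.171), where the median gene was 1.26 higher. *PTPRCAP*, whose product binds CD45, and *LCK*, *FGR* and *BLK* were among those with too few counts to be tested.

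Among the other receptor-type tyrosine phosphatases, of 10 tested 4 were higher and 1 lower with shControl (median 0.01), and 4 were higher and 5 lower with shMBD6 (median -0.16). *PTPRR* (0.68, edgeR adjusted p 6.33e-06) and *PTPRB* (0.65, edgeR adjusted p 2.75e-07) were higher, at 31.7 ± 1.07 against 19.7 ± 1.89 CPM and 37.3 ± 1.67 against 23.7 ± 0.209 CPM. *PTPRM* had 0 counts in WT shControl and 30 in KO shControl, at least 9.52-fold higher (edgeR adjusted p 0.000899). With *MBD6* KD, *PTPRR* fell in both lines, by 1.89 in WT (edgeR adjusted p 4.38e-11) and by 1.91 in KO (edgeR adjusted p 1.37e-11), and *PTPRB* fell by 0.97 (edgeR adjusted p 5.02e-09) and 0.69 (edgeR adjusted p 2.45e-07).

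*SLIT2*, a ligand of *ROBO1*, had 0 counts in the 3 WT shControl libraries and 45 to 93 in each KO shControl library (2.10 ± 0.653 CPM), at least 67.9-fold higher (edgeR adjusted p 1.40e-08), and with shMBD6 in KO it fell by 1.503 (edgeR adjusted p 0.00189). Of 14 tested genes of SLIT and ROBO signalling 8 were higher and 1 lower with shControl (median 0.44), whereas with shMBD6 1 was higher and 2 were lower (median 0.01). *SRGAP3* (2.75, edgeR adjusted p 0.00499) and *SRGAP1* (2.24, edgeR adjusted p 0.0227), GTPase-activating proteins that bind ROBO receptors, were at no more than 0.524 CPM. With shMBD6 *SRGAP3* (0.84, edgeR adjusted p 0.210) and *SRGAP1* (-0.88, edgeR adjusted p 0.320) did not pass between the lines. *SLIT2* was still called higher there (edgeR adjusted p 3.04e-06). *SRGAP1* did not pass without KO shControl replicate 1 (2.11, edgeR adjusted p 0.0702), WT shControl replicate 1 (1.76, edgeR adjusted p 0.0833) or WT shControl replicate 3 (1.73, edgeR adjusted p 0.0887) and stood at 7.14 without WT shControl replicate 2.

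Among the actin and RAC genes, all 16 partners of *HCLS1* and subunits of the Arp2/3 complex were tested, 3 were higher and 4 lower, and the median was 0.01. With shMBD6, 4 were higher and 4 lower (median -0.02). *WIPF1* (0.88, edgeR adjusted p 3.25e-10), *NCK2* (0.80, edgeR adjusted p 6.86e-11) and *WASL* (0.42, edgeR adjusted p 1.94e-06), which feed actin nucleation, were the 3 named. With shMBD6 *WASL* differed by 0.03 between the lines (edgeR adjusted p 0.679). *WIPF1* (0.74, edgeR adjusted p 7.34e-09) and *NCK2* (0.63, edgeR adjusted p 2.14e-09) stayed higher there. Of 21 genes of RAC signalling 9 were higher and 4 lower (median 0.33), and with shMBD6 9 were higher and 1 lower (median 0.22). *ARHGDIB*, which holds small GTPases inactive in haematopoietic cells, was at 86.4 ± 0.631 against 15.0 ± 0.751 CPM (2.52, edgeR adjusted p 4.42e-18), *PAK1*, a kinase that RAC activates, rose by 1.21 (edgeR adjusted p 1.34e-09), and *DOCK2*, the RAC exchange factor of leukocytes, by 1.11 (edgeR adjusted p 9.12e-16). In the gelsolin family, to which *SCIN* belongs, 4 of 7 were higher and 1, *GSN* (gelsolin itself), lower, at 15.8 ± 0.870 against 37.8 ± 0.699 CPM (-1.26, edgeR adjusted p 1.01e-12), with a median of 0.24. With shMBD6, 3 were higher and 1 lower (median 0.17). Under ERCC scaling *GSN* differed by -0.005 with shControl (edgeR adjusted p 0.951), where the median gene was 1.26 higher. *AVIL* (1.01, edgeR adjusted p 0.000548) and *VIL1* (1.00, edgeR adjusted p 0.00936) were at no more than 2.58 CPM. *VIL1* did not pass when KO shControl replicate 3 was left out (0.80, edgeR adjusted p 0.0608), and the family then held 3 calls in place of 5.

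Around *DACH1*, 3 of 7 tested genes of the sine oculis, eyes absent, DACH and SKI families were higher and 0 lower with shControl (median 0.13), 1 was higher and 1 lower with shMBD6 (median 0.06), and 6 had too few counts. *EYA3* (0.17, edgeR adjusted p 0.00577) was at 55.7 ± 1.21 CPM in KO shControl and 49.6 ± 1.73 CPM in WT shControl. *EYA4* (2.03, edgeR adjusted p 0.0302) was at 0.309 and 0.0724 CPM and did not pass without KO shControl replicate 1 (1.76, edgeR adjusted p 0.116) or 3 (2.01, edgeR adjusted p 0.0651) or WT shControl replicates 1, 2 or 3 (2.03, 2.06 and 2.00; edgeR adjusted p 0.0721, 0.0819 and 0.0786). *SIX4* (0.32, edgeR adjusted p 0.0261) did not pass without KO shControl replicate 1 (0.31, edgeR adjusted p 0.0687) or 2 (0.31, edgeR adjusted p 0.0728) or WT shControl replicate 1 (0.22, edgeR adjusted p 0.140). Without KO shControl replicate 1 the list held 1 call. With shMBD6 *EYA3* differed by 0.05 (edgeR adjusted p 0.446) and *SIX4* by 0.19 (edgeR adjusted p 0.174). *EYA4* was higher there by 3.27 (edgeR adjusted p 0.00164). Of 22 tested genes with a forkhead-associated domain, like *FHAD1*, 4 were higher and 5 lower with shControl (median -0.01), and 1 was higher and 9 lower with shMBD6 (median -0.07). *KIF1A*, a kinesin, fell by 3.0005 (edgeR adjusted p 3.59e-06), *NBN*, of the DNA break sensor, rose by 0.85 (edgeR adjusted p 2.94e-11), and *TCF19* fell by 0.44 (edgeR adjusted p 0.00107), the last being 0.82 higher under ERCC scaling, where the median gene was 1.26 higher.

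Like *PTPRC*, the genes of a last list are expressed across leukocytes. Of 20 tested, 11 were higher in KO shControl and 6 lower (median 0.45), and with shMBD6 10 were higher and 4 lower (median 0.35). *ITGA4*, the α4 integrin, rose from 0.298 ± 0.0476 to 9.42 ± 1.69 CPM (4.95, edgeR adjusted p 9.90e-13), *CD48* from 0.0668 ± 0.0628 to 1.43 ± 0.362 CPM (4.44, edgeR adjusted p 2.27e-07) and the transcription factor *IKZF3* from 0.673 ± 0.0949 to 7.55 ± 0.896 CPM (3.46, edgeR adjusted p 1.19e-12). With *MBD6* KD, *ITGA4* rose by 2.53 in WT (edgeR adjusted p 5.36e-07) and fell by 2.198 in KO (edgeR adjusted p 1.05e-08). Between the lines with shMBD6 *ITGA4* differed by 0.22 (edgeR adjusted p 0.406). *CD48* (1.67, edgeR adjusted p 0.000333) and *IKZF3* (2.66, edgeR adjusted p 2.30e-11) stayed higher there.

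The mouse LK cells give the same genes in primary progenitors with and without *Tet2*. *Ptprc*, *Hcls1*, *Arhgap15* and *Dach1* were at group means between 51.8 and 207 CPM in both genotypes. Of the 6 counterparts tested, 1 passed the edgeR test (background 6.44% of 17481 genes, 4.14% higher and 2.31% lower): *Scin* was at 9.14, 6.05 and 7.84 CPM in *Tet2* WT and 12.5, 17.2 and 15.4 CPM in *Tet2* KO, a log2 difference of 0.97 (SE 0.175, edgeR adjusted p 0.0201). The direction is opposite to that of *SCIN* in the K-562 lines. The call was lost without WT replicate 2 (0.82, edgeR adjusted p 0.0771) and without WT replicate 3 (0.98, edgeR adjusted p 0.0766).

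*Ptprc* was at 162, 164 and 179 CPM in *Tet2* WT and 236, 223 and 161 CPM in *Tet2* KO LK cells, a log2 difference of 0.30 (95% interval -0.00 to 0.60, edgeR adjusted p 0.217). Without KO replicate 3, the low library, it was 0.46 (edgeR adjusted p 0.00851). *Hcls1* differed by 0.21 (0.03 to 0.39, edgeR adjusted p 0.159), *Arhgap15* by 0.07 (-0.17 to 0.31, edgeR adjusted p 0.746) and *Dach1* by 0.09 (-0.08 to 0.25, edgeR adjusted p 0.528). *Robo1* was barely detected, at 7 to 21 counts (0.81, edgeR adjusted p 0.326), and *Fhad1*, at 0 to 13 counts, was not tested.

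With the IAP ASO, 4 of the 5 counterparts tested passed (background 39.6% of 16483 genes, 19.9% higher and 19.7% lower). *Ptprc* was at 436, 468 and 479 CPM with the control ASO and 367, 382 and 366 CPM with the IAP ASO, and fell by 0.31 (SE 0.0330, edgeR adjusted p 6.80e-09). *Arhgap15* fell by 0.23 (SE 0.0452, edgeR adjusted p 0.000154) and *Dach1* by 0.18 (SE 0.0382, edgeR adjusted p 0.000326), while *Scin* rose by 0.42 (SE 0.0618, edgeR adjusted p 2.40e-06). *Hcls1* differed by 0.04 (-0.03 to 0.12, edgeR adjusted p 0.387), and by 0.10 without control ASO replicate 1 (edgeR adjusted p 0.000737). *Robo1* and *Fhad1*, at 4 counts or fewer per library, were not tested. The labels do not give the *Tet2* genotype of the electroporated cells.

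**Figure D4:**
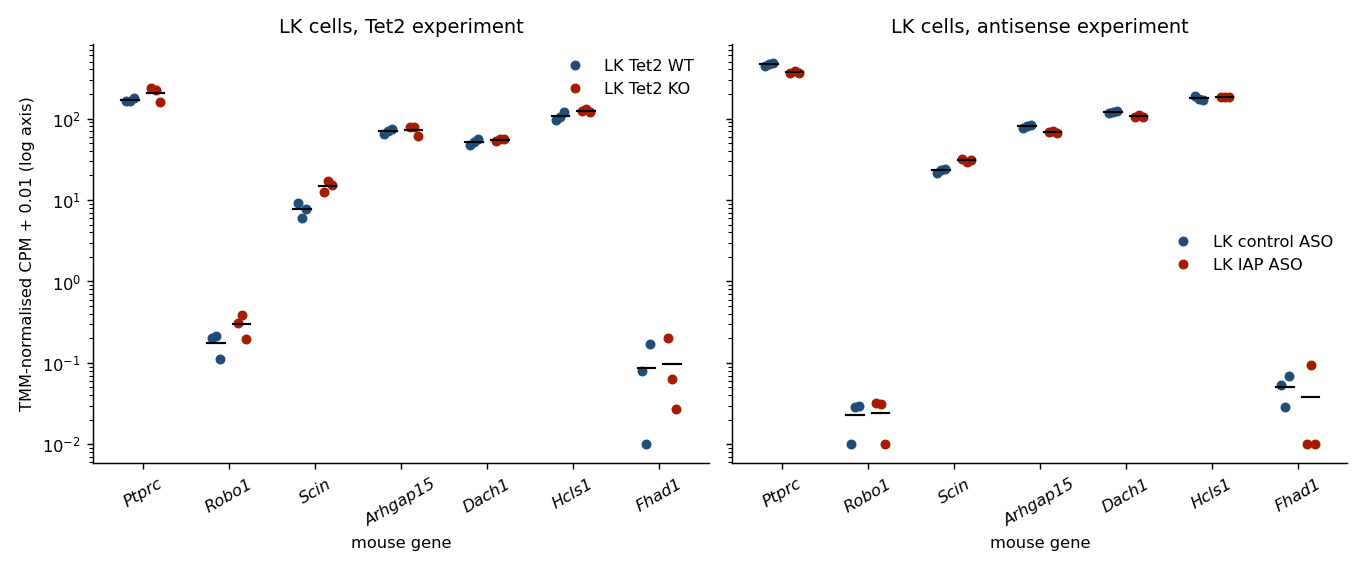
TMM-normalised CPM plus 0.01 on a log axis for the mouse counterparts of the 7 genes (x axis), 1 point per library, in the *Tet2* experiment (left) and the antisense experiment (right), with a black bar at the mean of 3 libraries. The mean of *Scin* lies higher in the *Tet2* KO libraries than in the WT libraries, and *Robo1* and *Fhad1* lie below 1 CPM throughout.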

How the data were processed

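RNA was sequenced from 12 K-562 and 12 mouse LK libraries in groups of 3, grouped by the sample titles. The authors deposited unnormalised counts of reads for each gene in each library. Per the submitters' processing notes the tools were Trimmomatic 0.39, HISAT2 2.2.1 and HTSeq 0.12.4; the authors used hg38 with ERCC spike-ins or mm10, and GENCODE releases 29 and M19. Strand use in counting was not given in the sources used here. In K-562, reads outside genes (10.4% to 13.8%), ambiguous reads (4.01% to 4.33%) and multiply aligned reads (6.04% to 6.43%) stayed out of all sums and tests, as did such lines in LK cells (22.9% to 25.4%, 2.76% to 2.96% and 6.75% to 7.10% with ASOs, 16.7% to 19.3%, 2.09% to 2.37% and 9.57% to 10.3% with *Tet2*). LK depth was 45461555 to 70008610 gene counts per library.

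Counts were fitted with edgeR 4.0.16 (R 4.3.3; filterByExpr, TMM, glmQLFit and glmQLFTest, Benjamini-Hochberg over all genes, adjusted p under 0.05), the 12 K-562 libraries together and each LK experiment apart, after a test on simulated data. After seeing the data, hairpin tests were limited to members that passed the filter within a line's own libraries. DESeq2 1.42.0 was an alternative. Shares of one line's level are ratios of pooled counts with exact conditional binomial intervals, a choice made after seeing the data; intervals and floors of 3 counts cover counting error only. Symbols and coordinates (counted from 1) came from GENCODE 44 (hg38) and M21 (mm10). Promoter windows were cut from hg38 at Ensembl canonical starts, because the RefSeq table at hand covered mouse only.

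The members, gene lists and tests were chosen with earlier results of these data known. Named are all members; from each list up to 3 called genes with the largest KO against WT difference; the nearest tested neighbour on each side and any called at 2-fold or more; and the 3 genes nearest in pattern. A gene that the rule names beside *SCIN* is not reported here. No pair of replicates was within counting noise of another (mean chi-square per gene 3.02 to 10.2).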

Additional observations from a re-analysis of the deposited data

Results flagged for a closer look

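The fitted effect of shMBD6 differed between the *TET2* KO and WT lines for all 5 genes given this interaction term. The same held for 21.3% of all 17936 genes. The difference on the log2 scale, KO minus WT, was -1.49 for *PTPRC*, -1.40 for *ARHGAP15*, -0.45 for *HCLS1*, -0.41 for *FHAD1* and -0.16 for *SCIN* (edgeR, Benjamini-Hochberg adjusted p 0.000583, 0.0132, 0.00451, 0.000350 and 0.0122). All 5 were negative, and 11% of all 17936 genes passed in that direction. The term shares values with the KO against WT differences that chose the genes, so neither the 5 calls nor the common sign is a separate result. On the ERCC scale the median gene moved by -0.95 in this contrast. *MBD6* RNA itself fell with its hairpin by 1.12 in WT and by 0.84 in KO, and the part of that was not tested. *PTPRC* was read in the KO line from 10 to 53 counts per library and *ARHGAP15* in the WT line from 9 to 36, and *SCIN* fell in both lines.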

How the results depend on the processing

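With ERCC scaling, the neighbours called between KO and WT 29, and the list genes called 10 (receptor phosphatases), 16 (*HCLS1* partners and Arp2/3), 21 (RAC), 7 (*DACH1* partners), 14 (SLIT and ROBO) and 22 (forkhead-associated domain); *SCIN* with shMBD6 in WT turned to 0.56 and *TCF19* between KO and WT to 0.82, as the median gene moved by 1.13 and 1.26. A window of 1 Mb gave 26 called neighbours of 64 (40.6%), and limits of 0.5 and 5 CPM gave 22 on or off genes. With DESeq2 the *DACH1* partner list held 1 call. With 1 library left out, the mouse counterparts called with *Tet2* KO ranged from 0 to 2, the *DACH1* partner calls from 1 to 3, the gelsolin calls from 3 to 6, the neighbours from 11 to 16, the members with shMBD6 from 4 to 5 in WT (4 in KO throughout) and the interaction from 4 to 5. Same-numbered libraries did not deviate together in K-562 (correlations -0.03 to 0.02) or LK cells (-0.14 to 0.05), so the numbers do not pair them. With a replicate block the members called were 4, 4 and 5 as without it, the neighbours 13 and the mouse counterparts with *Tet2* KO 0, since *Scin* kept 0.97 (edgeR adjusted p 0.0828). Over all alternatives, 167 of the counts kept within 1.5 times of the main value and 16 did not; of single-gene values 842 stayed, 33 lost a call and 8 gained one, 23 with no test moved and 2 reversed. Genes under 1 CPM, and so the off state of *DACH1*, *ROBO1* and *ARHGAP15*, are limited by depth.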
